A study of Mus musculus with 55 samples.

Results

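Ribosome biogenesis genes encode the factors that transcribe, modify, cut and assemble ribosomal RNA in the nucleolus. The 44 genes described here were listed by their role, by a rule that uses no measured value though earlier results of these data were known, and were followed in mouse embryonic stem cells (ES cells) as these left mitosis. Pre-mRNA was measured, that is, transcripts that still hold their introns, so that a level follows recent transcription more closely than the stable mRNA does. Of the 44 genes, 42 are listed both in the table of 9911 genes of the CCNA-GFP cells and in the table of 10237 genes of the CTCF-AID cells, and Fbl (fibrillarin) and Npm1 (nucleophosmin) are listed in neither.

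Both lines derive from E14Tg2a ES cells of strain 129/Ola and were grown with serum and LIF. CCNA-GFP cells carry a cyclin A reporter of the cell cycle, and CTCF-AID cells carry CTCF, the architectural DNA-binding factor, fused to a degron, so that auxin (indole-3-acetic acid, IAA) causes its degradation.  Mitotic cells of every group had been held for 4 h in 10 µM RO-3306, a CDK1 inhibitor, then for 4 h in 50 ng/ml nocodazole, and were collected by shake-off. They were released for 20 to 120 min, and asynchronous cells were taken alongside. CTCF-AID cells received either no IAA (−IAA) or 0.5 mM IAA for the last 2 h of nocodazole and throughout the release (+IAA). By the study's methods asynchronous cells were given IAA alongside for 4 h. CCNA-GFP cells gave 19 libraries and CTCF-AID cells 18 per arm, with 3 replicates of mitotic and asynchronous cells and 2 of each time after release, except that CCNA-GFP cells had 1 library at 50 min.

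Levels are in TPM, a transcript's share of all transcripts after division by length, over mRNA and pre-mRNA together. No read counts were used, so the depth is unknown. The TPM of all listed pre-mRNAs summed to between 13747 and 42576 in CCNA-GFP libraries, and to between 18396 and 43370 without and 17702 and 43058 with IAA. Of 8 ES cell markers 7 are listed (Sox2 is not), with a summed level of 24.7 to 104 TPM in CCNA-GFP cells, 39.7 to 126 TPM without IAA and 37.4 to 111 TPM with IAA. No marker of primitive endoderm (0 of 5) is listed, the mesoderm markers T and Eomes (2 of 3) summed to at most 5.55 TPM, and of 4 fibroblast markers none is listed in CCNA-GFP cells and 3 are in CTCF-AID cells, at 0.244 to 0.609 TPM in mitotic −IAA cells, 2.02 to 3.68 TPM at 60 min, 0.981 to 1.12 TPM at 120 min and up to 4.15 TPM with IAA. This sum rose and fell with time as many members did, and the part of such cells in the results was not tested.

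Ribosome production begins with RNA polymerase I, which transcribes the ribosomal DNA repeats with the factors Ubtf and Rrn3. Small nucleolar RNAs, held in ribonucleoprotein particles (snoRNPs), guide the modification of this precursor, and separate sets of factors then build the small and the large ribosomal subunit. Ribosomal RNA synthesis stops in mitosis and the nucleolus disperses, to form again as cells enter G1, and ES cells are known for large nucleoli and a high demand for ribosomes.

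Promoter sequence is shown for the 3 members with a shared run of letters close to their start site, because one of them, Nle1, was the single member called in the comparison with IAA. The sequences are from RefSeq (build GRCm38.p6), run 5′ to 3′ along the gene from 250 bases before to 50 bases after its start, and capitals mark a run that resembles a part of the sequence bound by CTCF (C, any base, A, G, any base, then GGGCGC) and, in Nle1, also CACGTG, the E-box.

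Nle1, chr11:82908346-82908645, minus strand: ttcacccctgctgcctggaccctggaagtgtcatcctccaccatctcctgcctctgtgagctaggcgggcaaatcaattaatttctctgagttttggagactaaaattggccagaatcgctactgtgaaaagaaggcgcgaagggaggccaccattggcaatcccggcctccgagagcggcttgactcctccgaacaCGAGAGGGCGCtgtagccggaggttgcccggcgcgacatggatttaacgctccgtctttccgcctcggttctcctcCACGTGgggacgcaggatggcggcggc
Ddx18, chr1:121567931-121568230, minus strand: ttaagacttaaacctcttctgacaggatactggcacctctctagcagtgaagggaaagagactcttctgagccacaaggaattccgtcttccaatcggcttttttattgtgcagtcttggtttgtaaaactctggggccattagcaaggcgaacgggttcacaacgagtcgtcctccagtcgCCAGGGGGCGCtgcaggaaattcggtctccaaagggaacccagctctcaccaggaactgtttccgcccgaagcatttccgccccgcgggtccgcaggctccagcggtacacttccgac
Noc3l, chr19:38819188-38819487, minus strand: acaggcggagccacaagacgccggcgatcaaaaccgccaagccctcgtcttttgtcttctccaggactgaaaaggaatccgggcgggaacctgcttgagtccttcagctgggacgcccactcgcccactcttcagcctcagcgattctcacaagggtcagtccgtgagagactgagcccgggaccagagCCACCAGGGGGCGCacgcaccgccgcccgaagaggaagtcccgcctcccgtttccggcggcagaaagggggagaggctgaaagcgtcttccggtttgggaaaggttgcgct

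Of the 42 listed members, 39 had such a promoter sequence. Searched on both strands, the CTCF-like run was found in 3 of 39 (7.69%), namely Nle1, Ddx18 and Noc3l, and in 2.09% of the 8459 listed genes with a promoter sequence. These letters were chosen after the Nle1 promoter had been read, so that the share among the members is a description. A longer form of the CTCF core, which overlaps the run in Noc3l and is why its capitals begin earlier, was present in 1 of 39 members (2.56%, Noc3l) and in 4.89% of the listed genes. An E-box was present in 8 members (20.5%: Nle1, Nop2, Pes1, Rrn3, Wdr43, Utp20, Mybbp1a and Tsr1) against 12.7%, and CCAAT in 15 members (38.5%) against 43.9%.

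Members were among the more abundant listed pre-mRNAs. The median of their mean levels was 5.13 TPM in CCNA-GFP cells, where that of all listed genes was 1.66 TPM, and 5.91 against 1.89 TPM in CTCF-AID cells. All members lay above the median gene in CTCF-AID cells and 41 of 42 did in CCNA-GFP cells, where Ddx10 was the lowest at 1.66 TPM. The highest was Nop56 at 19.9 TPM in CCNA-GFP cells and Nop58 at 25.1 TPM in CTCF-AID cells, both core proteins of the snoRNPs that guide ribose methylation. No member was listed at 0 in any library.

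In CCNA-GFP cells the question was when these genes became active again after mitosis. At 20 min no member and no other gene passed the test against mitotic cells (limma on log2(TPM + 1) with the release experiment as a block, adjusted p under 0.05, 0% of all genes called), and no member had an unadjusted p under 0.05. At 30 min again no member was called higher (0.303% of all genes were), with 10 members at an unadjusted p under 0.05. At 40 min 24 of 42 members had risen, against 49.3% of all genes, and at 60, 90 and 120 min all 42 were higher than in mitotic cells, against 88.3%, 89.1% and 90.2% of all genes. None was called lower at these times, as 0.0404%, 0.515%, 0.948% and 0.656% of all genes were. With equal totals 12 members were higher and 10 lower at 90 min, against 31.8% and 26.1% of all genes, and 11 and 14 at 120 min, against 28.7% and 23.4%. The count of 24 at 40 min became 15 without replicate 1, where 26.4% of all genes were called, and at 30 min 1 member was called without replicate 2 (3.12% of all genes).

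The members rose more than the typical gene on this scale, a lead that was not seen once libraries were scaled to equal totals (medians of 0.01 and 0.02 at 60 min). At 60 min their log2 fold changes of TPM + 1 ran from 0.44 to 1.80 with a median of 1.13, while the median of all genes was 0.79, a difference of 0.34. The member median was 1.28 in replicate 1 and 0.96 in replicate 2, against 0.92 and 0.64 for all genes. The medians of 40 min were 0.37 and 0.26, those of 90 min 1.04 and 0.73 and those of 120 min 0.92 and 0.68. The single library at 50 min, set against the mitotic cells of its own replicate, gave 0.83 for the members and 0.56 for all genes, with all 42 members above 0 and no replicate to give an error. The difference from all genes shrank to 1.34 against 1.30 at 60 min with a pseudocount of 0.1 in place of 1 and to 1.13 against 0.97 once genes averaging under 1 TPM were left out.

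TPM is a share of all transcripts in a library, and pre-mRNA as a whole rose after mitosis. When each library was scaled to the same total of listed pre-mRNA, the median of all genes at 60 min moved from 0.79 to 0.02, that of the members became 0.01, and 17 members (40.5%) were called higher and 16 (38.1%) lower, against 36.3% and 33.2% of all genes. The members thus rose with pre-mRNA as a whole and split around it. Their share of listed pre-mRNA was 1.07% ± 0.06 in mitotic cells (SD, n = 3), 1.02% ± 0.04 at 60 min (SD, n = 2) and 0.934% ± 0.033 in asynchronous cells (SD, n = 3). In bulk RNA, fewer cells that transcribe a gene and less RNA of it per cell cannot be told apart.

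**Figure D1:**
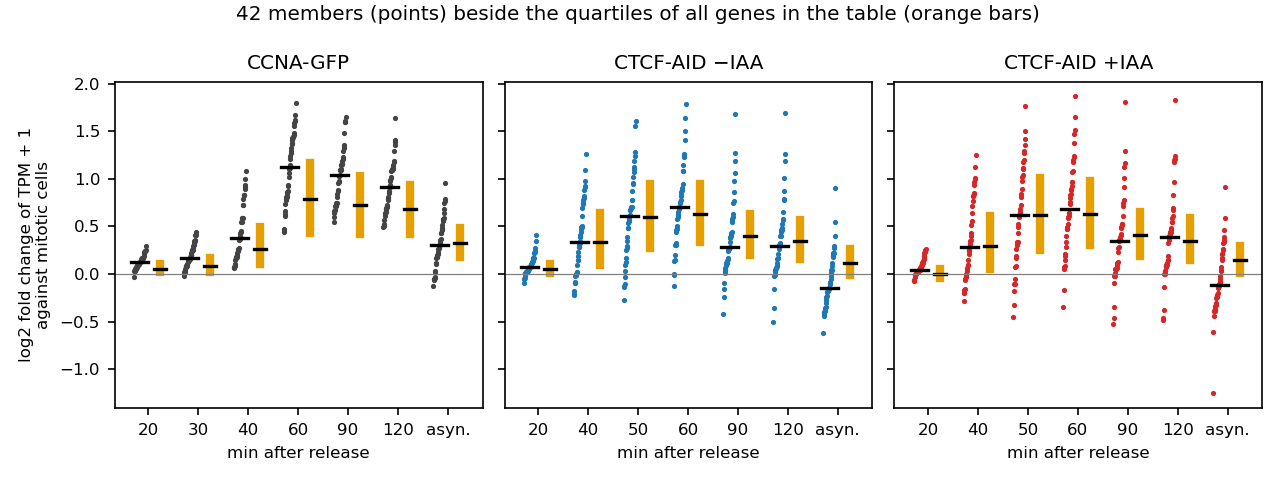
Log2 fold change of TPM + 1 against mitotic cells of each of the 42 members (points) and the interquartile range of all listed genes (orange bars), with medians as black lines, by time after release (min) and in asynchronous cells. At 60 min the medians of members and all genes were 1.13 and 0.79 in CCNA-GFP cells and 0.70 and 0.63 in −IAA cells, and the member medians with equal totals were 0.01, −0.10 and −0.12 in CCNA-GFP, −IAA and +IAA cells.

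The RNA polymerase I group was the least raised of the 5 groups by role. Its 5 members had a median log2 fold change of 0.86 at 60 min, and 1 of 5 had already risen at 40 min, Polr1c, a subunit that polymerase I shares with polymerase III (1.46 ± 0.18 at 60 min, SE). With equal totals 1 of the 5 was higher and 4 were lower at 60 min. Polr1a, which encodes the largest subunit, measured 3.00, 2.52 and 3.63 TPM in the mitotic libraries and 7.61 and 4.74 TPM at 60 min. Polr1b, its partner in the catalytic core, measured 1.74, 1.76 and 2.28 TPM in mitotic cells and 3.77 and 2.65 TPM at 60 min. In both genes the 60 min libraries lay above all mitotic ones, with log2 fold changes of 0.92 ± 0.13 (SE, limma adjusted p = 1.78e-06) and 0.61 ± 0.12 (adjusted p = 8.13e-05), which became −0.18 and −0.35 with equal totals. The share of all genes whose groups lie apart in this way is not given, here or below, and 88.3% were called higher at 60 min. Lying apart is thus not read as particular to a member. Ubtf, which binds the ribosomal DNA promoter, went from 5.09, 4.19 and 5.48 TPM to 9.63 and 7.60 TPM. Rrn3, which brings the polymerase to that promoter, went from 5.50, 3.35 and 6.10 TPM to 11.6 and 6.29 TPM, so that its lower 60 min library stood just above the highest mitotic one. Their log2 fold changes were 0.79 ± 0.13 and 0.86 ± 0.14 (adjusted p = 9.23e-06 and 5.26e-06), and −0.38 and −0.31 with equal totals.

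Among the snoRNP proteins 3 of 4 had risen at 40 min and all 4 at 60 min, with a median of 1.42 and with 2 higher and 1 lower at equal totals. Nop56 was the member with the largest rise at 40 min (1.08 ± 0.15, adjusted p = 9.19e-06). It measured 11.3, 10.5 and 11.0 TPM in mitotic cells, 24.98 and 21.3 TPM at 40 min, 36.9 TPM at 50 min and 34.1 and 27.5 TPM at 60 min, and the groups at 40 and 60 min did not overlap with the mitotic one. Its partner Nop58 behaved otherwise, at 15.9, 11.9 and 17.1 TPM in mitotic cells, 17.8 and 14.1 TPM at 40 min and 26.9 and 17.5 TPM at 60 min. One 60 min library of Nop58 stood well above the mitotic ones and the other just above them, and its log2 fold change of 0.63 ± 0.13 (adjusted p = 0.000121) became −0.65 with equal totals, whereas Nop56 stood at 1.48 ± 0.15 (adjusted p = 1.61e-08) and 0.19, where it was no longer called (adjusted p = 0.0685). Dkc1, the pseudouridine synthase of the other snoRNP class, went from 3.38, 2.16 and 3.80 TPM to 10.9 and 6.79 TPM at 60 min (1.36 ± 0.14, adjusted p = 1.79e-08). Nolc1, a phosphoprotein that accompanies snoRNPs, went from 4.01, 3.12 and 4.70 TPM to 14.4 and 10.1 TPM (1.55 ± 0.14, adjusted p = 3.76e-09).

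Of the 3 nucleolar proteins, Ncl (nucleolin) and Mybbp1a had risen at 40 min and all 3 at 60 min, with a median of 1.43 and with 2 higher and 1 lower at equal totals. Ncl measured 5.78, 5.08 and 6.13 TPM in mitotic cells and 18.2 and 14.4 TPM at 60 min, without overlap (1.44 ± 0.14, adjusted p = 1.27e-08). Ddx21, an RNA helicase, was slower, at 5.78, 5.38 and 6.80 TPM in mitotic cells and 11.99 and 8.66 TPM at 60 min (0.78 ± 0.13, adjusted p = 1.34e-05). It became −0.42 with equal totals.

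The 14 small subunit factors had a median of 1.02 at 60 min, and 7 of them had risen at 40 min. With equal totals 4 were higher and 5 lower at 60 min. The highest was Noc4l, a nucleolar partner of Nop14, at 1.01, 0.996 and 1.10 TPM in mitotic cells and 5.90 and 4.00 TPM at 60 min (1.61 ± 0.15, adjusted p = 4.89e-09). Ddx10, a helicase, had the lowest log2 fold change of TPM + 1 of all 42 members, at 1.08, 0.996 and 1.38 TPM against 2.09 and 1.38 TPM (0.44 ± 0.11, limma adjusted p = 0.000611). By mean TPM Rrp1b, Utp14a and Nop58 rose less, 1.28, 1.37 and 1.49 times against 1.51 times for Ddx10. The lower 60 min library of Ddx10 equalled the highest mitotic one to 3 digits, and Ddx10 went on to 2.52 and 3.01 TPM at 90 min. Utp14a, which activates a helicase of the small subunit processome, overlapped as well, at 6.06, 5.31 and 7.03 TPM against 9.89 and 6.93 TPM (0.47 ± 0.13, adjusted p = 0.00214). With equal totals Ddx10 and Utp14a were at −0.34 and −0.71, and neither was called without replicate 1 (adjusted p = 0.0815 and 0.14).

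The small subunit factors Nop14, Rrp12 and Utp20, of which Rrp12 also acts in the export of precursors, were taken up because they fell below mitotic levels elsewhere. At 60 min they rose, Nop14 from 3.10, 2.49 and 3.51 to 9.06 and 5.37 TPM, Rrp12 from 1.99, 1.56 and 2.47 to 5.33 and 3.29 TPM, and Utp20 from 4.15, 2.82 and 4.19 to 8.33 and 5.16 TPM. In each of them the groups did not overlap, which is not read as particular to them. Their log2 fold changes were 1.11, 0.94 and 0.81, and −0.0039, −0.07 and −0.31 with equal totals. The other small subunit factors, Rrp9, Wdr43, Wdr75, Utp15, Nat10, Heatr1, Tsr1 and Rcl1, ranged from 0.73 for Wdr43 to 1.44 for Rcl1.

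The 16 large subunit factors held the largest rises. Their median was 1.23 at 60 min, 11 of them had risen at 40 min, and with equal totals 8 were higher and 5 lower at 60 min. Ftsj3, a methyltransferase of large subunit precursors, had the largest log2 fold change of TPM + 1 of all members at 60 min. It went from 2.23, 1.86 and 2.39 TPM in mitotic cells to 5.39 and 4.07 TPM at 40 min and 11.1 and 7.92 TPM at 60 min. By mean TPM Nop16, Noc4l and Ebna1bp2 rose more, 4.95, 4.78 and 4.74 times against 4.41 times for Ftsj3. Gnl3 (nucleostemin), a nucleolar GTPase of stem cells, went from 7.94, 6.48 and 7.11 TPM to 27.2 and 21.1 TPM, and Ebna1bp2, an assembly factor, from 1.25, 0.996 and 1.27 TPM to 6.58 and 4.53 TPM. All 60 min libraries of these genes lay far above the mitotic ones. The log2 fold changes were 1.80 ± 0.14 (adjusted p = 6.38e-10) for Ftsj3, a 3.49-fold rise of TPM + 1, 1.67 ± 0.14 (adjusted p = 1.65e-09) for Gnl3 and 1.62 ± 0.13 (adjusted p = 5.19e-10) for Ebna1bp2.

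Pes1, Bop1 and Wdr12 form one complex, PeBoW, needed to process the large subunit rRNA, and rose by like amounts from mitosis to 60 min. Pes1 measured 2.82, 2.36 and 3.29 TPM in mitotic cells and 9.47 and 6.15 TPM at 60 min. For Bop1 the values were 3.00, 3.32 and 4.16 TPM and then 11.2 and 8.06 TPM, and for Wdr12 1.39, 1.13 and 1.57 TPM and then 5.14 and 3.61 TPM. None of the 3 overlapped between the groups, at a time when 88.3% of all genes were called higher. Their log2 fold changes were 1.29 ± 0.14, 1.37 ± 0.14 and 1.24 ± 0.11 (limma, adjusted p = 3.86e-08, 1.92e-08 and 4.21e-09). Their later course was not the same, since in asynchronous cells the mean level was 2.00 and 2.19 times the mitotic one for Pes1 and Wdr12 and 1.04 times for Bop1.

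Nle1, a WD-repeat protein of late large subunit precursors, rose less, from 2.44, 1.83 and 2.76 TPM to 5.33 and 3.68 TPM at 60 min and 5.62 and 6.50 TPM at 90 min (0.81 ± 0.13 at 60 min, adjusted p = 6.01e-06, and −0.22 with equal totals). Nop2, an rRNA methyltransferase, went from 8.19, 8.54 and 9.42 TPM to 21.1 and 15.8 TPM, and the GTPase Gnl2 from 1.71, 1.49 and 1.97 TPM to 4.38 and 2.97 TPM. Neither overlapped, which is not read as particular to them. Nop2 and Gnl2 had log2 fold changes of 1.06 ± 0.14 and 0.85 ± 0.11, and −0.20 and −0.11 with equal totals. Rrp1b, the lowest of the large subunit factors, did overlap, at 7.39, 6.24 and 9.02 TPM in mitotic cells and 12.1 and 7.21 TPM at 60 min. Its log2 fold change was 0.45 ± 0.15 (adjusted p = 0.00886), it was not called without replicate 1 (0.24, adjusted p = 0.263), and it became −0.75 with equal totals.

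**Figure D2:**
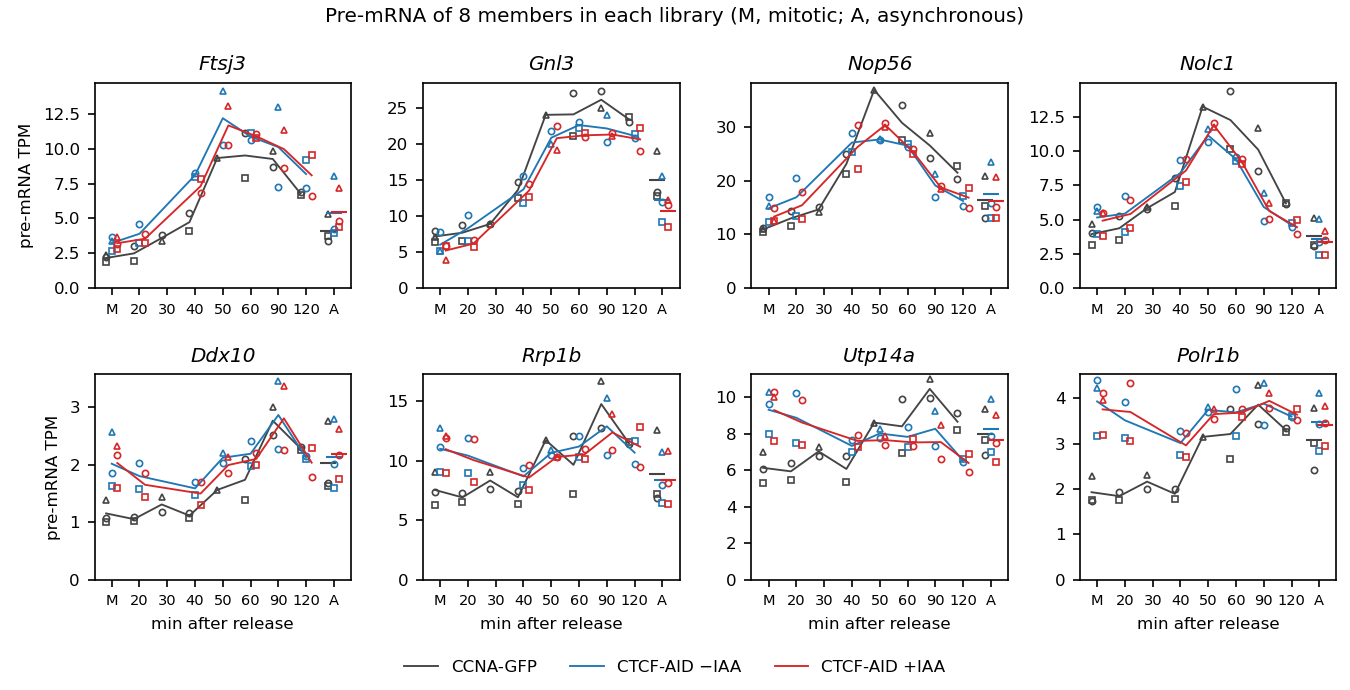
Pre-mRNA level (TPM) of 8 members by time after release (min), with M for mitotic and A for asynchronous cells, where each symbol is a library (shape by replicate) and lines join the means. In CCNA-GFP cells Ftsj3 went from at most 2.39 TPM in mitosis to at least 7.92 TPM at 60 min, while Rrp1b, Utp14a and Polr1b were not called higher at 60 min in either CTCF-AID arm, and Ddx10, Rrp1b, Utp14a and Polr1b were lower at 60 min in CCNA-GFP cells with equal totals.

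By their means 35 of 42 members (83.3%) began below their asynchronous level and had reached it by 60 min, against 72.6% of all genes, and 6 (14.3%) began above it. With equal totals 9 (21.4%) reached it in this way, against 25.5% of all genes, and 29 (69.05%) began above it, against 44.9%. At 60 min 38 of 42 were higher than in asynchronous cells, against 67% of all genes, and none was lower, against 8.6%, with medians of 0.83 and 0.47. With equal totals 22 members (52.4%) were higher and 8 (19.05%) lower, against 34.99% and 35.2% of all genes. From 60 to 120 min 9 of 42 members fell, against 28.5% of all genes, and none rose, against 9.6%. These were Nolc1, Nop56, Rrp9, Utp15, Ftsj3, Ebna1bp2, Bop1, Noc3l and Ddx18. Nolc1 fell the most, from 14.4 and 10.1 TPM at 60 min to 6.16 and 6.19 TPM at 120 min, and stood at 3.10, 3.13 and 5.09 TPM in asynchronous cells, overlapping its mitotic values. Its change from 60 to 120 min was −0.87 ± 0.15 (SE, adjusted p = 0.000225). The fall was not shared by the replicates, since 41 of 42 members were lower at 120 min in replicate 1 and 16 of 42 in replicate 2. Without replicate 1 a single member was called lower (6.37% of all genes), without replicate 2 there were 15 (33.4% of all genes), and without the block 1 (12.1%). With equal totals 6 members (14.3%) were higher and 8 (19.05%) lower, against 24.2% and 21.7% of all genes.

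The time of the highest level depended on the replicate and on the scaling. By the mean of each stage 9 members (21.4%) were highest at 50 min, 4 (9.52%) at 60 min and 29 (69.05%) at 90 min, against 21.7%, 23.0% and 37.1% of all genes. With equal totals there were 9, 2 and 10 at these times, against 14.4%, 15.6% and 10.9% of all genes, and 6 (14.3%) were highest in mitotic cells, against 11.1%. These means come from different replicates, with replicate 3 alone at 50 min, 1 and 2 at 60 min, and 1 and 3 at 90 min. Within replicate 1, which holds 60 and 90 min, 37 of 42 members (88.1%) were highest at 60 min and 5 at 90 min, against 66.5% and 11.8% of all genes, a comparison added after seeing the data. The member median against mitotic cells was 1.28 at 60 min and 1.02 at 90 min in that replicate.

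Asynchronous cells held more pre-mRNA than mitotic cells for 25 of 42 members, against 70.4% of all genes, and less for none, against 1.97%. The member median of 0.30 was close to that of all genes, 0.33. Gnl3 stood highest, with 13.3, 12.8 and 19.1 TPM against 7.94, 6.48 and 7.11 TPM in mitotic cells (0.96 ± 0.12, adjusted p = 5.77e-06), followed by Pes1, Ncl and Wdr12. Without the block 15 members were called (46.7% of all genes), without replicate 3 there were 13 (46.98%), and with equal totals 8 (19.05%) were higher and 21 (50%) lower, against 24.7% and 20.2% of all genes. At 40 min the count of 24 likewise became 9 without the block (23.8% of all genes), and with equal totals 10 members (23.8%) were higher and 17 (40.5%) lower, against 23.7% and 31.1% of all genes.

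Members differed in gene length, from 4135 bp for Polr1c to 149419 bp for Ddx10, with a median of 16114 bp against 23271 bp for the listed genes. Longer members had smaller changes at 60 min. Across the 42 members the Spearman correlation of gene length with the log2 fold change in CCNA-GFP cells came to −0.65 for 40 min, −0.62 for 60 min and −0.57 for 120 min. Across the listed genes with a length it was −0.55, −0.38 and −0.25. In CTCF-AID cells it was −0.66 without and −0.63 with IAA at 60 min, against −0.39 and −0.43 over all genes. Genes of one set of libraries are not independent replicates, and these values carry no test.

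Of the members, 8 hold small RNA genes within them, 21 of snoRNA type and 2 microRNAs. They are Nop56, Nop58, Ncl, Dkc1, Wdr43, Gnl3, Tsr1 and Rcl1. Small RNAs of this kind are cut from introns, so reads from them would fall on the host's pre-mRNA. In CCNA-GFP cells the median log2 fold change at 60 min was 1.40 for the 8 hosts and 1.08 for the other 34 members, and the host range of 0.63 to 1.67 lay inside that of the others, 0.44 to 1.80. In asynchronous cells the medians were 0.55 and 0.27. In −IAA cells hosts and others stood at 0.79 and 0.70 after 60 min, and the hosts were not above the others after 90 min (0.26 and 0.31) or 120 min (0.295 and 0.305), while in asynchronous cells they stood at 0.10 and −0.15. In +IAA cells hosts were above the others after 60 min (0.93 and 0.62), 90 min (0.37 and 0.32) and 120 min (0.40 and 0.37). The part of small RNA reads in these levels was not tested.

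**Figure D3:**
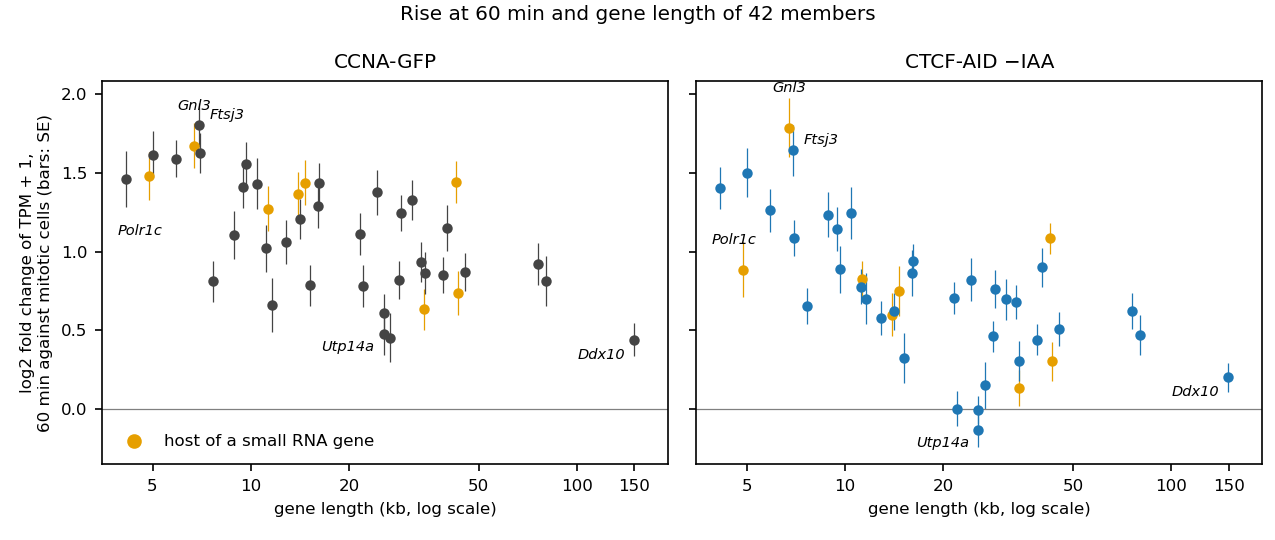
Log2 fold change of TPM + 1 at 60 min against mitotic cells (bars, SE) by gene length (kb, log axis) for the 42 members in CCNA-GFP cells (left) and CTCF-AID cells without IAA (right), with hosts of small RNA genes in orange. Short members such as Polr1c, Gnl3 and Ftsj3 lie high and the longest, Ddx10, low, with Spearman correlations of −0.62 and −0.66.

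In CTCF-AID cells without IAA most members rose by 60 min as well, with medians near or below those of all genes from 40 to 120 min except for a small lead at 60 min. The 2 tables were normalized apart, so the lines are set side by side and not tested against each other. At 20 min no member or other gene was called (0%, limma, with 2 members at an unadjusted p under 0.05). At 40 min 24 members were higher and 1 lower, against 63.3% and 3.21% of all genes. At 50 min 33 were higher and 1 lower (79.1% and 4.56% of all genes), at 60 min 36 and 0 (84.8% and 2.7%), at 90 min 23 and 2 (74.8% and 3.37%) and at 120 min 21 and 2 (69.6% and 3.15%). Fewer were higher at 40 and 120 min without the block, with values given under the processing below. The member median was 0.34 at 40 min, as was that of all genes. Later the members and all genes stood at 0.61 and 0.60 after 50 min, 0.70 and 0.63 after 60 min, 0.28 and 0.40 after 90 min, and 0.30 and 0.34 after 120 min. With equal totals 11 members (26.2%) were higher and 18 (42.9%) lower at 60 min, against 39.4% and 31.1% of all genes, with a median of −0.10. On that scale the members higher and lower were 10 and 22 at 40 min, where 33.3% and 36.7% of all genes were, 10 and 23 at 50 min (40.7% and 33.6%), 8 and 24 at 90 min (34.5% and 25.6%) and 8 and 23 at 120 min (32.0% and 25.9%), so that more members were lower than higher at each of these times.

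By the mean of each stage 25 members (59.5%) were highest at 50 min, against 48.1% of all genes, 7 at 60 min and 8 at 90 min, while within replicate 1 there were 11 at 50 min, 26 at 60 min and 0 at 90 min, against 36.7%, 34.5% and 3.43% of all genes. By their means Polr1b and Utp14a were highest in mitotic cells, which with equal totals held for 18 members (42.9%), against 13.5% of all genes.

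The order of the members was most alike between the lines at the early times, while the sizes differed. Across the 42 members the Spearman correlation of log2 fold changes between CCNA-GFP and −IAA cells was 0.95 at 40 min and 0.89 at 60 min, then 0.74 (90 min) and 0.75 (120 min), and 0.84 in asynchronous cells, given as a description over genes that share their libraries. At 60 min 39 of 42 had the larger value in CCNA-GFP cells. Gnl3 rose from 7.87, 5.13 and 5.13 TPM in mitotic −IAA cells to 23.1 and 22.3 TPM at 60 min (1.79 ± 0.18, adjusted p = 4.83e-09), and Ftsj3 from 3.65, 2.68 and 3.36 TPM to 10.6 and 11.2 TPM (1.64 ± 0.16, adjusted p = 2.46e-09). Both lay well apart from their mitotic values, as they did in CCNA-GFP cells.

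The 6 members Nop58, Polr1b, Ubtf, Rrp1b, Utp14a and Ddx21 were called higher at no time in −IAA cells. The share of all genes called at no time is not given. At 60 min 85.7% of the members and 84.8% of all genes were called higher, so the count of 6 is not read as particular to the members. Polr1b measured 4.39, 3.17 and 4.22 TPM in mitotic cells and 4.21 and 3.17 TPM at 60 min, so that the groups coincided (−0.01 ± 0.09, adjusted p = 0.95). At 40 min, with 3.27 and 2.75 TPM, Polr1b was called lower (−0.22 ± 0.09, adjusted p = 0.0306). Utp14a measured 9.66, 8.01 and 10.3 TPM in mitotic cells and 6.46 and 6.62 TPM at 120 min, without overlap (−0.36 ± 0.11, adjusted p = 0.00538), and was called lower at 50 and 90 min too (−0.27 and −0.24). Ddx21 held its mitotic level of 9.76, 8.18 and 10.5 TPM at 60 min, with 9.02 and 8.77 TPM, and then dropped to 5.93 and 6.01 TPM at 120 min (−0.50 ± 0.11, adjusted p = 0.000339). The 6 lower calls after release, of Polr1b, Utp14a and Ddx21, stand against rises of the same genes at 60 to 120 min in CCNA-GFP cells, which with equal totals became lower calls too (−0.35, −0.71 and −0.42 at 60 min). The difference between the lines was not tested.

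In asynchronous −IAA cells more members were below than above the mitotic level. Of the 42, 10 were called lower, against 5.25% of all genes, and 3 higher, against 34.3%, with medians of −0.14 for the members and 0.12 for all genes. The 3 higher members were Gnl3, Ftsj3 and Nop16 (0.90, 0.55 and 0.40). By their means, 27 of 42 members (64.3%) stood below mitotic cells, as 26.5% of all genes did, and in CCNA-GFP cells 6 of 42 (14.3%) against 8.35%.

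The members called lower came from every group but polymerase I, though the groups were not tested against each other. The median of the polymerase I group was −0.18, against −0.20 for snoRNP proteins, −0.16 and −0.07 for small and large subunit factors and 0.22 for nucleolar proteins. With equal totals its members Rrn3 and Polr1b stood at −0.42 and −0.31. Ddx21 fell the most, with 5.86, 4.63 and 7.04 TPM against 9.76, 8.18 and 10.5 TPM in mitotic cells, without overlap (−0.62 ± 0.10, adjusted p = 3.54e-05). Nop58 measured 19.7, 16.8 and 23.0 TPM against 28.5, 21.6 and 29.9 TPM, and Nolc1 3.37, 2.39 and 5.04 TPM against 5.94, 3.93 and 5.59 TPM, and in both the groups overlapped between replicates while each replicate had the lower value in asynchronous cells. Their log2 fold changes were −0.41 ± 0.10 and −0.45 ± 0.13 (adjusted p = 0.00274 and 0.00979). Of the small subunit factors Rrp12 (1.65, 1.24 and 2.19 against 2.72, 2.05 and 2.98 TPM), Utp20 (3.12, 3.13 and 4.36 against 4.96, 3.91 and 5.46 TPM) and Nop14 (3.198, 2.56 and 4.08 against 4.68, 3.05 and 5.20 TPM) were lower, by −0.42, −0.35 and −0.30. All 3 were lower within each replicate. Of the large subunit factors Bop1 (3.40, 2.54 and 5.09 against 4.78, 4.17 and 6.32 TPM), Gnl2 (1.73, 1.43 and 2.21 against 2.78, 1.98 and 3.21 TPM), Rrp1b (7.92, 6.41 and 10.8 against 11.2, 9.06 and 12.8 TPM) and Nop2 (8.63, 8.21 and 11.2 against 12.3, 11.7 and 12.5 TPM) were lower, by −0.40, −0.38, −0.37 and −0.36. Only Ddx21 of the 10 was called without the block, where 1.24% of all genes were called lower. Without replicate 1 there were 6, where 4.25% of all genes were. With equal totals 26 members (61.9%) were lower and 3 (7.14%) higher, against 21.4% and 27.2% of all genes.

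**Figure D4:**
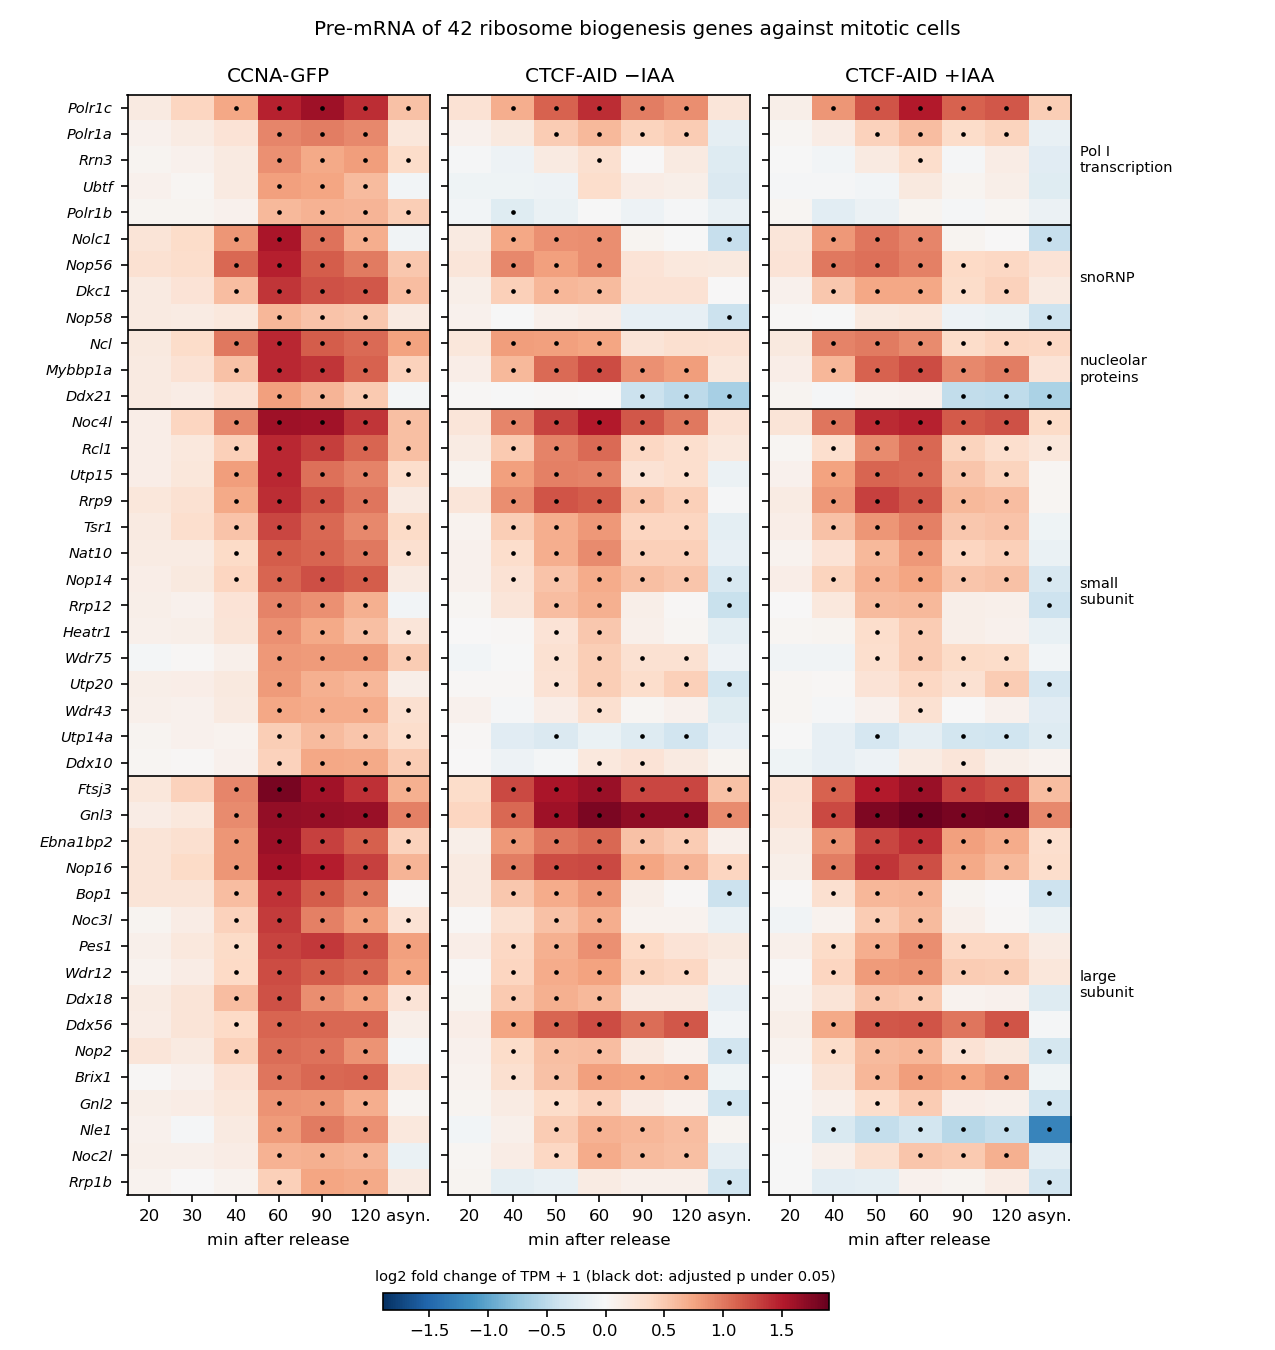
Log2 fold change of TPM + 1 against mitotic cells of each of the 42 members, grouped by role, at each time after release (min) and in asynchronous cells, in CCNA-GFP cells and the 2 arms of CTCF-AID cells. Red is higher, blue lower, and a dot marks an adjusted p under 0.05. All 42 members carry a dot at 60 min in CCNA-GFP cells, where 16 are lower with equal totals, and Nle1 is blue from 40 min on in the +IAA arm alone, whereas with equal totals it was also lower at 40 to 60 min without IAA.

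With IAA the course of the members as a whole was close to that without. No member was called at 20 min (limma, 0% of all genes), nor did any have an unadjusted p under 0.05. Calls above and below mitotic cells numbered 21 and 1 at 40 min (58.7% and 3.87% of all genes), 30 and 2 at 50 min (78.2% and 5.37%), 34 and 1 at 60 min (82.2% and 4.04%), 26 and 3 at 90 min (73.8% and 4.41%) and 24 and 3 at 120 min (68.2% and 4.42%). The median at 60 min was 0.69, against 0.63 for all genes, and −0.12 with equal totals. In asynchronous cells 8 were higher and 12 lower (40.9% and 5.89% of all genes), with medians of −0.11 and 0.15. Without the block these counts fell, as did those higher at 40 and 120 min, with values given under the processing below. With equal totals the counts from 40 to 120 min were 12 and 24 (33.2% and 38.5% of all genes), 11 and 24 (40.9% and 35.5%), 11 and 21 (40.6% and 33.2%), 9 and 23 (36.7% and 27.4%) and 8 and 20 (33.5% and 28.7%), and 5 and 27 in asynchronous cells (29.7% and 22.4%). Gnl3 led again at 60 min (1.87 ± 0.18), with Ftsj3 (1.65) and Polr1c (1.51) after it.

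Counts at the late times rested on single replicates in both arms. The calls of all genes moved with them. At 90 min the members higher were 11 without and 15 with IAA when replicate 3 was left out, and 50.4% and 53.7% of all genes were. At 120 min they were 12 and 10 without replicate 2 (50.8% and 41.5% of all genes), and 37 with IAA without replicate 1 (76.8%). Higher members in asynchronous cells numbered 1 and 2 without replicate 3 (17.3% and 26.9% of all genes), 6 without replicate 1 in −IAA cells (27.02%) and 5 without replicate 2 in +IAA cells (30.9%). Lower members in +IAA cells were 7 without replicate 1 (4.26% of all genes).

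The effect of IAA was then tested at each stage, to ask whether these genes needed CTCF to start again. A gene was called at an adjusted p under 0.1 and an absolute log2 fold change over 0.2, without the block. Of the 42 members, Nle1 alone was called. It was lower with IAA at 50 min, 60 min, 90 min, 120 min and in asynchronous cells, where 0.195%, 0.166%, 0.557%, 0.459% and 0.694% of all genes were called lower. No gene was called in mitotic cells, at 20 min or at 40 min (limma, 0%), and of the members none had an unadjusted p under 0.05 in mitotic cells and at 20 min and 1, Nle1, had at 40 min.

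Nle1 lies at chr11:82900768-82908411 on the minus strand (mm10, ENSMUSG00000020692.14). Its pre-mRNA measured 4.85, 3.71 and 4.89 TPM in mitotic cells without IAA and 4.05, 3.41 and 4.28 TPM with it, and at 20 min 4.82 and 3.47 TPM against 4.56 and 3.16 TPM. In these pairs the level with IAA was 0.834 to 0.944 of that without, and the groups overlapped. At 40 min it was 5.10 and 4.17 TPM without and 3.38 and 2.43 TPM with IAA, already without overlap (−0.54 ± 0.17, adjusted p = 1).

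From 50 min on the arms separated widely. Without IAA Nle1 measured 7.12 and 6.84 TPM at 50 min, 8.03 and 6.60 TPM at 60 min, 6.79 and 9.05 TPM at 90 min and 6.37 and 7.43 TPM at 120 min. With IAA it measured 3.01 and 2.52 TPM at 50 min, 2.88 and 2.56 TPM at 60 min, 2.49 and 2.67 TPM at 90 min and 2.36 and 2.51 TPM at 120 min. Asynchronous cells had 4.35, 4.21 and 5.40 TPM without and 1.04, 1.00 and 1.12 TPM with IAA, the lowest levels of Nle1 in any group. Over these stages the level with IAA was 0.208 to 0.422 of its pair, and Nle1 was lower with IAA in 18 of 18 pairs over all stages.

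The log2 fold changes with IAA were −1.09 ± 0.17 at 50 min (SE, adjusted p = 0.00488), −1.16 ± 0.17 at 60 min (adjusted p = 0.00119), −1.31 ± 0.17 at 90 min (adjusted p = 9.59e-05), −1.20 ± 0.17 at 120 min (adjusted p = 0.000284) and −1.45 ± 0.14 in asynchronous cells (adjusted p = 5.09e-07). Leaving out replicate 1, which left 1 library per arm at the times after release, kept changes of −1.09 to −1.49, but no call held (adjusted p from 0.348 to 1). Without replicate 3 the calls at 50 and 90 min were lost (−1.02 and −1.16, adjusted p = 0.619 and 0.156). A lone library in such a fit is assumed to vary like the other groups.

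Against mitotic cells of the same arm, Nle1 rose without IAA and fell with it on the TPM scale, while with equal totals the rise without IAA was not seen and the fall with it was. Without IAA it was 0.48, 0.65, 0.63 and 0.58 higher at 50, 60, 90 and 120 min, and with IAA it was −0.29, −0.45, −0.35, −0.52 and −0.46 from 40 to 120 min and −1.25 in asynchronous cells, all called. With equal totals Nle1 without IAA was called lower at 40, 50 and 60 min (−0.43, −0.30 and −0.18) and was not called at 90 and 120 min (both 0.10), and with IAA it was called lower from 40 min on, by −0.77, −1.18, −1.10, −1.01 and −0.94 and by −1.51 in asynchronous cells. The direct comparison of the arms kept its direction at these stages, from −0.48 at 40 min to −1.53 in asynchronous cells. Whether the IAA effect itself differed between 20 to 60 min and asynchronous cells was tested as an interaction, which was 0.74 ± 0.16 (adjusted p = 0.17, with 0.0195% of all genes called higher and no member). With the replicate number as a block, the same value was called (adjusted p = 0.0021), as it was with a pseudocount of 0.1 (1.16, adjusted p = 0.0205) and with equal totals (0.90, adjusted p = 4.4e-06). Asynchronous cells had IAA for longer than cells at 20 to 60 min, so the interaction does not separate stage from length of treatment.

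**Figure D5:**
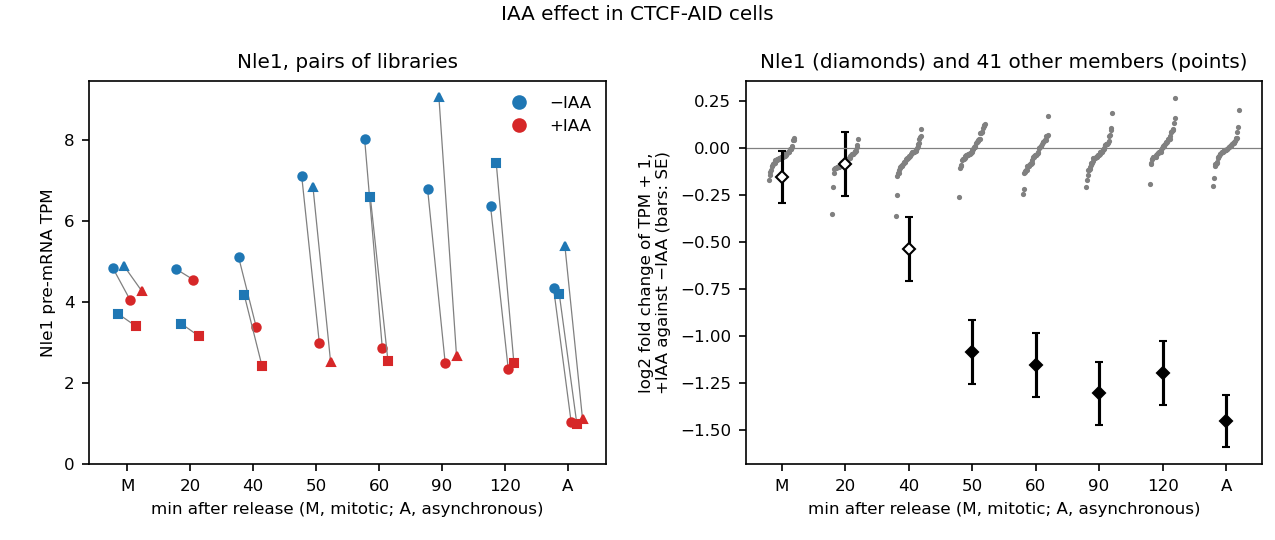
Left, Nle1 pre-mRNA (TPM) in pairs of −IAA (blue) and +IAA (red) libraries of the same replicate (symbol shape), joined by lines, by time after release (min). Right, log2 fold change of TPM + 1 with IAA of Nle1 (diamonds with SE, filled where called) and of the 41 other members (grey points). Nle1 was lower in 18 of 18 pairs and called from 50 min on, while the other members lay between −0.36 and 0.26.

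The other 41 members showed no call at any stage. Their log2 fold changes ran from −0.17 to 0.05 in mitotic cells, −0.25 to 0.17 at 60 min and −0.20 to 0.20 in asynchronous cells. The median SE was 0.18 to 0.22 and the lowest adjusted p was 0.999761 (limma). With the replicate number as a block the median SE was 0.11 to 0.13, still none of the 41 was called (lowest adjusted p = 0.93), and 1, Ddx18 at 40 min, had an unadjusted p under 0.05. Ddx18, a helicase of large subunit precursors with the second run of letters shown above, was lower with IAA in 18 of 18 pairs, with a mean of −0.21 over the 8 stages and −0.36 at the most, at 40 min, and with an unadjusted p of 0.068 there (0.00911 with the block, adjusted p = 0.999). It was named after its values were seen. Noc3l, the third gene with those letters, had a mean of −0.08 and was lower in 13 of 18 pairs. Of the members without them, Polr1a and Utp20 were lower in 16 pairs (means of −0.08 and −0.06) and Pes1 in 15 (−0.04). Ubtf, Rrp12, Brix1 and Wdr43 were lower in 14 pairs, with a mean of −0.08 for Ubtf. Gnl3 was lower in 13 pairs, and its mean of −0.11 lay beyond that of Noc3l. In all 33 of 42 members (78.6%) were lower with IAA in more than 9 of the 18 pairs, against 61.7% of all genes, with no test made of this lean.

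The genes beside Nle1 were not called with IAA in mitotic cells, at 60 min or in asynchronous cells, though both had lower means with IAA at each. Rad51d, a DNA repair gene, measured a mean of 2.26 TPM without and 1.74 TPM with IAA at 60 min (−0.25 ± 0.11, adjusted p = 1) and 0.709 against 0.668 TPM in asynchronous cells (−0.04 ± 0.09). Unc45b measured 0.522 against 0.319 TPM at 60 min (−0.20 ± 0.10, adjusted p = 1) and 0.187 against 0.134 TPM in asynchronous cells (−0.07 ± 0.08). Fndc8, which overlaps the 3′ end of Nle1 by 34 bp on the opposite strand, is not listed. Ctcf pre-mRNA was not called at any of these stages, which checks nothing, since IAA acts on the protein.

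A wider list of 120 further ribosome biogenesis genes was read beside the members, of which 106 are listed. In CCNA-GFP cells 103 of the 106 (97.2%) rose at 60 min, against 88.3% of all genes and 48 with 32 lower at equal totals (36.3% and 33.2% of all genes), with a median of 1.10, from 1.96 for Pno1, a small subunit assembly factor, to −0.14 for Taf1b, a polymerase I initiation factor (adjusted p = 0.117). In −IAA cells 95 (89.6%) rose, against 84.8% of all genes, and 1, Taf1b, fell (−0.25, adjusted p = 9.66e-05), and at equal totals 34 were higher and 41 lower (39.4% and 31.1% of all genes). In asynchronous −IAA cells 15 (14.2%) were higher and 6 (5.66%) lower than in mitotic cells, against 34.3% and 5.25% of all genes, with a median of −0.03, and at equal totals 11 and 57 (27.2% and 21.4% of all genes). With IAA 23 (21.7%) were higher and 8 (7.55%) lower, against 40.9% and 5.89% of all genes, and at equal totals 15 and 56 (29.7% and 22.4% of all genes). The IAA effect was called for a single gene of the 106, Bysl, a small subunit factor, lower in asynchronous cells (−0.65, adjusted p = 0.055). With equal totals Bysl was called at 90 and 120 min too, and Nol9 at 50 min (−0.30, adjusted p = 0.045). On that scale the IAA effect on Bysl at 20 to 60 min against asynchronous cells was called as well (limma, 0.46, adjusted p = 0.0658).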

How the data were processed

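The authors prepared total RNA (TRIzol, DNase I), removed ribosomal RNA, made stranded paired-end libraries and, per the labels and the study's methods, quantified them with STAR and RSEM on mm10 and Gencode vM12, to which they added 1 pre-mRNA isoform per gene over its longest isoform. The deposited values are TPM of these pre-mRNA isoforms, over mRNA and pre-mRNA together, for genes they kept because the mean TPM passed 0.5, either among asynchronous samples or in 2 or more samples after mitosis. The strand setting of RSEM, the versions of STAR and RSEM and the depth are not given in the sources used here, so reads of a gene and of one overlapping it on the other strand may not be told apart.

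Each table was fitted whole with limma 3.58.1 under R 4.3.3, taking log2(TPM + 1) and adjusting p-values over all its genes (Benjamini-Hochberg), and 2 tables were never tested together. Stages were compared with mitotic cells with each replicate number as a block, at an adjusted p under 0.05, and +IAA with −IAA without it, at an adjusted p under 0.1 and an absolute log2 fold change over 0.2. The numbers pair the samples because, by the study's methods, each replicate was a separate release experiment. As a check, deviations of same-numbered libraries from their group means had a median correlation of 0.47 in CCNA-GFP cells (44 of 49 pairs over 0.1) and 0.50 in CTCF-AID cells (197 of 214). Pairs of replicates held identical values for at most 0.313% of genes, so none is a copy of another. The fits were tested on simulated data.

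The members, the wider list of pathway genes and the tests were chosen with earlier results of these data known. Values per library were given for a fixed set of well known members, the 4 highest and 4 lowest at 60 min in CCNA-GFP cells, those called with IAA in asynchronous cells or at 2 or more times, those called at 30 min (none), and those called lower than mitotic cells at any stage, 26 genes in all. Gene positions and lengths come from Gencode vM21 (GRCm38), promoters from RefSeq (GRCm38.p6). Alternatives were a pseudocount of 0.1, leaving out genes that average under 1 TPM, the same total of listed TPM in each library ("equal totals"), the block left out or added, each replicate left out, medians without small RNA hosts, and the share without the most abundant member. Summaries used Python 3.11.15 with scipy 1.17.1, numpy 2.4.6 and pandas 2.3.3, and plots matplotlib 3.10.9. A search for a further promoter motif is not reported here.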

Additional observations from a re-analysis of the deposited data

Results flagged for a closer look

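Some members had changes of opposite sign in every replicate of 2 groups set side by side. Some of these changes are very small, such as −0.006 for Polr1b at 60 min without IAA. The share of all genes with opposite signs is not given, so the list is not read as particular to the members. The differences between the lines were not tested, since their tables were normalized apart. Those between the arms, which share a table, were not tested as changes from mitosis, and the arms were compared directly at each time instead. Values are log2 fold changes of TPM + 1 against mitotic cells, and not all of them were called. They depend on the scaling. With equal totals 1 of the 17 pairs between the lines and 2 of the 5 between the arms kept opposite signs.

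Between CCNA-GFP cells and CTCF-AID cells without IAA, Polr1b was at 0.08 and −0.22 at 40 min, 0.61 and −0.006 at 60 min and 0.47 and −0.14 in asynchronous cells. Utp14a was at 0.47 and −0.13 at 60 min, 0.60 and −0.24 at 90 min, 0.53 and −0.36 at 120 min and 0.33 and −0.16 in asynchronous cells. For Ddx21 the values were 0.64 and −0.41 at 90 min and 0.49 and −0.50 at 120 min, and for Nop58 0.55 and −0.16 at 90 min. In asynchronous cells the pairs were 0.18 and −0.30 for Nop14, 0.35 and −0.24 for Rrn3, 0.31 and −0.23 for Wdr43, 0.48 and −0.0938 for Wdr75, 0.34 and −0.11 for Utp15, 0.26 and −0.15 for Ddx18 and 0.27 and −0.14 for Noc3l. The mitotic level of Polr1b was 1.74 to 2.28 TPM in CCNA-GFP cells and 3.17 to 4.39 TPM in −IAA cells, and that of Utp14a 5.31 to 7.03 and 8.01 to 10.3 TPM. With equal totals the pairs at 60 min became −0.35 and −0.78 for Polr1b and −0.71 and −1.01 for Utp14a, and only Polr1b in asynchronous cells stayed opposite (0.04 and −0.31), where 21 members were lower in CCNA-GFP cells, against none on the TPM scale.

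Between −IAA and +IAA cells Nle1 was at 0.09 and −0.29 at 40 min, 0.48 and −0.45 at 50 min, 0.65 and −0.35 at 60 min, 0.63 and −0.52 at 90 min and 0.58 and −0.46 at 120 min. With equal totals these became −0.43 and −0.77, −0.30 and −1.18, −0.18 and −1.10, 0.10 and −1.01, and 0.10 and −0.94, opposite in sign at 90 and 120 min. That these changes from mitosis differ between the arms was not tested, whereas the arms were compared directly at each time as reported above.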

How the results depend on the processing

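Scaling each library to the same total changed many counts, though leaving out the block or a replicate changed some of them more. Members called higher than mitotic cells at 30, 40, 60, 90 and 120 min and in asynchronous cells became 1, 10, 17, 12, 11 and 8 in CCNA-GFP cells, and 22 above asynchronous cells at 60 min. At 40, 50, 60, 90 and 120 min they became 10, 10, 11, 8 and 8 without IAA and 12, 11, 11, 9 and 8 with IAA, where 5 were higher in asynchronous cells, while 22, 23, 18, 24 and 23 and 24, 24, 21, 23 and 20 were lower, against 25.6% to 38.5% of all genes. Lower members in asynchronous cells became 26 and 27. The member medians at 60 min became 0.0054, −0.0977 and −0.1227. Members that began below their asynchronous level and reached it by 60 min went from 35 to 9 in CCNA-GFP cells, against 72.6% and 25.5% of all genes. In −IAA cells they went from 15 to 9, against 61.3% and 28.7%, and more members then began above it in both. Members highest at 50 and at 60 min became 3 and 3 without IAA, against 16.5% and 11.5% of all genes. With IAA they became 4 and 2, against 16.9% and 11.4%. Within replicate 1 alone, an alternative chosen after seeing the data, 37 were highest at 60 min in CCNA-GFP cells, against 66.5% of all genes. That replicate has no library at 50 min in these cells. At 60 min in CCNA-GFP cells 15 named members turned negative, Polr1a −0.18, Polr1b −0.35, Ubtf −0.38, Rrn3 −0.31, Nop58 −0.65, Nle1 −0.22, Ddx10 −0.34, Rrp1b −0.75, Utp14a −0.71, Ddx21 −0.42, Gnl2 −0.11, Nop14 −0.0039, Nop2 −0.20, Rrp12 −0.0687 and Utp20 −0.31. The IAA effect at 40 min gained 1 call, Nle1.

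Without the replicate block 9 members were higher at 40 min and 15 in asynchronous CCNA-GFP cells, and 1 was lower at 120 than at 60 min. Without IAA there were 13 at 40 min, 10 at 120 min and 1 higher and 1 lower in asynchronous cells, against 43.5%, 42.3%, 11.6% and 1.24% of all genes. With IAA there were 13, 11, 1 and 2, against 40.0%, 43.7%, 17.3% and 1.75% of all genes. With the block the interaction gained 1 call (Nle1), as it did with a pseudocount of 0.1 (1) and with equal totals (1). A pseudocount of 0.1 gave 1 member at 30 min. Without the most abundant member the share at 60 min was 0.940%, 0.978% and 0.955%.

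Leaving out each replicate in turn gave 0 to 1 members higher in CCNA-GFP cells at 30 min, 15 to 20 at 40 min, 39 to 42 at 60 min, 40 to 42 at 120 min, 13 to 29 in asynchronous cells, 28 to 40 at 60 min against these, and 1 to 15 lower from 60 to 120 min. Without IAA the counts were 20 to 23 at 40 min, 30 to 31 at 50 min, 33 to 36 at 60 min, 11 to 27 at 90 min, 12 to 30 at 120 min and 1 to 6 higher and 6 to 8 lower in asynchronous cells. With IAA they were 19, 30, 30 to 37, 15 to 25, 10 to 37, 2 to 9 and 7 to 11. The IAA effect gave 0 to 1 lower at 50, 60, 90 and 120 min and in asynchronous cells. The calls of all genes moved too. In asynchronous cells 46.98% to 67.8% of them were higher in CCNA-GFP cells, 17.3% to 29.9% without IAA and 26.9% to 37.5% with IAA. In the CTCF-AID arms 2.62% to 4.25% and 3.19% to 5.38% were lower. Each time after release keeps 1 library in some of these fits, so these ranges are not read as particular to the members. Member medians at 60 min were 0.96 to 1.31, 0.62 to 0.85 and 0.59 to 0.83. Of the other values 210 counts and medians and 240 single-gene values kept their direction and call, and 32 single-gene values lost the call. The cause of these changes was not tested. Unknown depth limits any statement on genes that were not called.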

Other observations

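Ribosome biogenesis members with an E-box in the promoter window did not stand above the others. In CCNA-GFP cells at 60 min the median log2 fold change was 0.96 for the 8 members with CACGTG and 1.21 for the 31 without. At 40 min the medians were 0.27 and 0.40. In CTCF-AID cells at 60 min they were 0.62 and 0.75 without IAA and 0.52 and 0.80 with it. These are descriptions over genes, with no test.

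Bysl, which acts late in small subunit assembly and is not among the 44 genes, was called lower with IAA in asynchronous cells and stood at −0.67 at 90 min (adjusted p = 0.256) and −0.63 at 120 min (adjusted p = 0.404), where it was not called. With equal totals it was called at all of these, at −0.62 (adjusted p = 0.00253), −0.62 (adjusted p = 0.00239) and −0.70 in asynchronous cells (adjusted p = 1.81e-05). It was singled out after its values were seen.

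Several members overlap other genes on the opposite strand. Pes1 shares 12804 bp with 4930556J24Rik, Utp14a 5662 bp with 9530027J09Rik, Tsr1 2984 bp with Srr, Polr1a 2631 bp with Gm26628 and Bop1 2007 bp with Scx. The part of such reads in their levels was not tested.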
